A study of Mus musculus with 12 samples.

Results

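The comparison set 2 arrays of mouse splenic B cells labelled Jmjd2a-depleted at day 3 against the 2 control arrays of the same day, which are 4 of the 12 arrays of the series. The members were chosen by title alone, and every value is a log2 probe-set level on an Affymetrix mouse expression array, as deposited. All groups were B220+ B cells, taken with magnetic beads from the spleen of C57BL/6 mice with the MD4 transgene, Tg(IghelMD4)4Ccg, which gives a B cell receptor against hen egg lysozyme (HEL). All were cultured in RPMI with 10% fetal bovine serum and stimulated with anti-CD40, IL21 and HEL, which mimic help from follicular T cells together with antigen. The groups were Jmjd2a-depleted at day 3, Jmjd2c-depleted at day 3 and control at day 3, and Jmjd2a-depleted and control at day 1 were used for the change between days. One label says that the cells received shRNA virus (shcontrol for the controls) and another that they were transfected with siRNA (siJmjd2a, siJmjd2c or sicontrol). Both day 3 control arrays carry the description D3-Ct-1 while their titles number them as replicates 1 and 2. No label names separate animals or cultures, so p-values measure only a spread between arrays. That spread is pooled over the 6 groups of the series and not taken from the 4 compared arrays alone.

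Jmjd2a, now named Kdm4a, is a JmjC-domain demethylase that removes tri- and dimethyl groups from lysine 9 and lysine 36 of histone H3, and Jmjd2c (Kdm4c) is a close relative. Methylated lysine 9 marks silent chromatin and is read by HP1 proteins. An activated B cell that becomes a plasma cell divides, raises Prdm1, Irf4 and Xbp1, which drive antibody secretion, and shuts off Pax5, Bach2 and Bcl6, which hold the B cell and germinal centre states. Myc drives growth and ribosome production in the dividing cells, and the antibody-secreting cell later enlarges its secretory pathway and leaves the cell cycle.

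Control replicate 2 stood apart from the other 11 arrays before any gene was compared. Its interquartile range was 3.08 log2 units, against 3.38 to 3.63 on the others. Its 18S ribosomal RNA control probe sets averaged 10.73 against 11.73 to 12.73. Its spiked hybridisation controls averaged 11.58 against 10.60 to 11.09. The pooled SD between replicates over all probe sets was 0.115 in the Jmjd2a-labelled group and 0.259 in the control group. The fit shares 1 spread per probe set over all groups. Its intervals and p-values can therefore be too narrow for genes that vary between the day 3 control arrays. The Jmjd2a-labelled arrays at day 3 also lay close to the day 1 control arrays: 75 of 45037 probe sets (0.167%) passed between these groups, and 10741 (23.8%) passed between day 3 and day 1 controls. The last comparison shares the day 3 control arrays with the results that follow. Markers of B cells were well above the array-wide median of 5.22. The receptor component Cd79a read 6.80 and 6.91 on Jmjd2a-labelled against 7.12 and 7.06 on control arrays, and the B cell antigen Ms4a1 11.28 and 11.20 on Jmjd2a-labelled against 11.59 and 11.43 on control arrays.

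The targeted gene itself was read first. The main Kdm4a probe set read 8.08 and 8.05 on the Jmjd2a-labelled arrays, against 8.20 and 8.17 on the control arrays. The groups did not overlap, but the difference was small and did not pass (log2 difference -0.12, 95% interval -0.31 to 0.07, adjusted p = 0.36), and the interval puts the Jmjd2a-labelled level at 80.5% to 105% of control. A dim second Kdm4a probe set read 3.43 and 3.52 on the Jmjd2a-labelled arrays, against 3.13 and 3.33 on the control arrays (0.25, adjusted p = 0.17). The label Jmjd2a-depleted is therefore used here as a label, since these arrays do not show the transcript to be lower beyond error. Where along the transcript either probe set lies was not analysed here. Kdm4c read 7.90 and 7.91 on the Jmjd2a-labelled arrays, against 7.96 and 7.56 on the control arrays, with overlapping groups (log2 difference 0.14, 95% interval -0.11 to 0.40, adjusted p = 0.42), and only without control replicate 1 did it pass, at 0.35 (adjusted p = 0.0055). Among the 20 histone lysine demethylases measured, 3 rose (8 without control replicate 1, 1 without Jmjd2a replicate 2) and 0 fell (1 without control replicate 2 or control replicate 1). Of all genes by their brightest probe set, 16.0% were called higher and 9.04% lower. The counts in this paragraph read against these shares, and 3 risen of 20 is near the share called higher. Kdm6b, which acts on H3 lysine 27, read 8.75 and 8.78 on Jmjd2a-labelled against 7.70 and 7.75 on control arrays on its brightest probe set (1.04, adjusted p = 1.0e-05). The lysine 4 demethylase Kdm1b (0.48, adjusted p = 0.0043) and Phf8 (0.33, adjusted p = 0.03) rose by less. Kdm1b lost its call without Jmjd2a replicate 2 (0.41, adjusted p = 0.072), and Phf8 without control replicate 2 or either Jmjd2a array (0.27, 0.41 and 0.26, adjusted p = 0.089, 0.058 and 0.24). Of the 10 measured H3K9 methyltransferases and their readers, 1 passed (0 without control replicate 2, Jmjd2a replicate 1 or Jmjd2a replicate 2, 3 without control replicate 1): the methyltransferase Suv39h2, at 7.25 and 7.35 on Jmjd2a-labelled against 7.01 and 6.54 on control arrays (0.52, adjusted p = 0.025), and it lost its call without control replicate 2 (0.29, adjusted p = 0.12) and without Jmjd2a replicate 1 or 2 (0.57 and 0.47, adjusted p = 0.081 and 0.16).

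Across the array, 9351 of 45037 probe sets (20.8%) passed an adjusted p under 0.05, 6149 higher (13.7%) and 3202 lower (7.11%) on the Jmjd2a-labelled arrays. Of these, 613 were higher and 315 lower by at least 2-fold, and the median difference over all probe sets was -0.04. The groups did not overlap at 56.4% of probe sets. With 1 array left out, and a lone array taken to vary like the other groups, the number that passed was 17389 without control replicate 1, 7759 without control replicate 2, 5434 without Jmjd2a replicate 1 and 4240 without Jmjd2a replicate 2. Of the 9351, 6510 (69.6%) also passed without control replicate 2. With the model fitted to the 4 compared arrays alone, 3440 passed. Quantile normalization put the split at 5293 higher and 3782 lower, and centring of the array medians at 6735 and 2431. With each of 18193 genes represented by its brightest probe set, 16.0% were called higher and 9.04% lower, with a median difference of -0.05. Each list of genes, above and below, reads against these shares. Rose and fell, above and below, mean higher and lower than on the day 3 control arrays, not a change over time. In RNA from a whole culture, fewer cells of a type and less RNA per cell cannot be told apart.

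**Figure D1:**
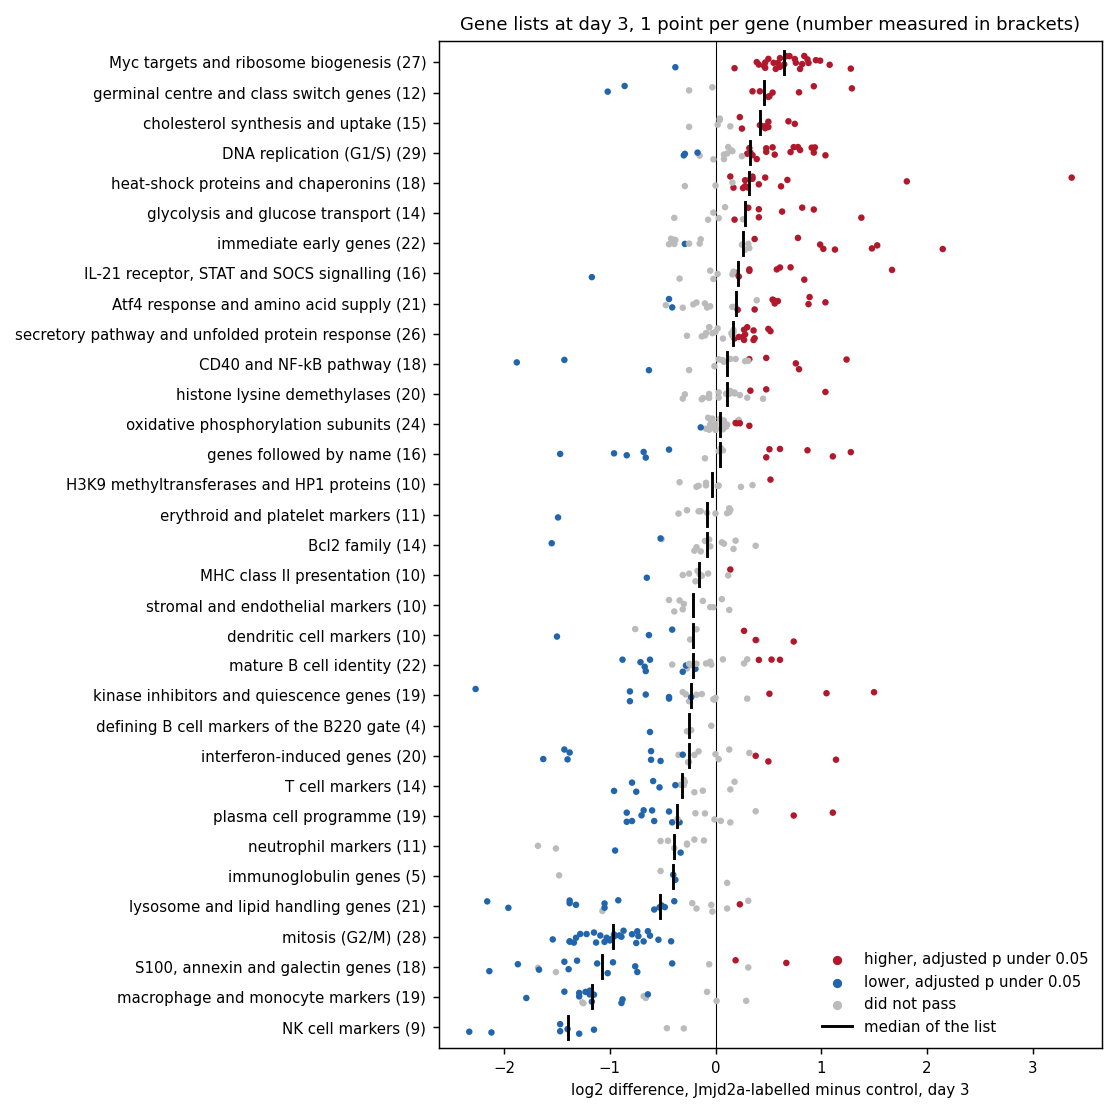
Log2 difference, Jmjd2a-labelled minus control at day 3, for every measured gene of 33 lists (1 point a gene, black bars the list medians, red and blue points past an adjusted p under 0.05). All 28 mitosis genes lie left of 0 and 26 of 27 Myc and ribosome biogenesis genes lie right of it, while the plasma cell programme lies on both sides.

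The genes of plasma cell differentiation did not move as 1 block. Xbp1, the transcription factor that expands the secretory pathway, read 11.90 and 11.85 on the Jmjd2a-labelled arrays, against 12.52 and 12.59 on the control arrays (log2 difference -0.68, 95% interval -0.80 to -0.56, adjusted p = 8.1e-06). Jchain, the chain that joins IgM and IgA units, read 11.70 and 11.67 on Jmjd2a-labelled against 12.54 and 12.51 on control arrays (log2 difference -0.84, 95% interval -1.17 to -0.51, adjusted p = 0.0021). Both fell, and the groups did not overlap, as they did not at 56.4% of all probe sets. Sdc1, the surface proteoglycan CD138 by which plasma cells are sorted, went the other way at 10.46 and 10.52 on Jmjd2a-labelled against 9.43 and 9.32 on control arrays (log2 difference 1.11, 95% interval 0.92 to 1.30, adjusted p = 7.1e-06), and all 4 of its probe sets rose, by 1.07 to 1.61. Prdm1, which encodes Blimp-1, the regulator that closes the B cell programme, read 7.67 and 7.58 on Jmjd2a-labelled against 7.81 and 7.34 on control arrays, with groups that overlapped (log2 difference 0.05, 95% interval -0.29 to 0.39, adjusted p = 0.86). Irf4, needed for class switching and for plasma cells, read 9.32 and 9.26 on Jmjd2a-labelled against 9.47 and 9.31 on control arrays and also overlapped (log2 difference -0.10, 95% interval -0.32 to 0.12, adjusted p = 0.52). On the B cell side, Bach2, a repressor of Prdm1, rose with 11.56 and 11.58 on Jmjd2a-labelled against 10.93 and 10.99 on control arrays (log2 difference 0.61, 95% interval 0.50 to 0.72, adjusted p = 8.8e-06). Bcl6, the repressor that sets the germinal centre state, rose with 8.78 and 8.84 on Jmjd2a-labelled against 8.36 and 8.23 on control arrays (log2 difference 0.51, 95% interval 0.31 to 0.71, adjusted p = 0.0018). Pax5, the B cell identity factor, read 7.11 and 7.09 on Jmjd2a-labelled against 7.07 and 6.99 on control arrays and did not pass (log2 difference 0.07, 95% interval -0.24 to 0.37, adjusted p = 0.77). Nfkbia, the inhibitor of NF-kB, read 12.78 and 12.78 on Jmjd2a-labelled against 12.74 and 12.77 on control arrays (0.03, adjusted p = 0.54).

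Over the whole plasma cell list, 2 of 19 measured members rose and 10 fell (5 without Jmjd2a replicate 1, 6 without Jmjd2a replicate 2), with a median difference of -0.36, and -0.37 against control replicate 1 alone. Mzb1, a chaperone of antibody assembly, fell with 11.90 and 11.82 on Jmjd2a-labelled against 12.68 and 12.71 on control arrays (-0.84, adjusted p = 1.4e-05). The mannosidase-like quality control protein Edem1 fell with 10.56 and 10.53 on Jmjd2a-labelled against 11.24 and 11.25 on control arrays (-0.70, adjusted p = 1.5e-05), and Tnfrsf17, the BCMA receptor, with a difference of -0.60, adjusted p = 0.022. The list also holds Cd28, a T cell receptor of costimulation as well, at -0.79, adjusted p = 0.0032. The risen members were Sdc1 and Fkbp11, a secretory prolyl isomerase (6.78 and 6.59 on Jmjd2a-labelled against 6.07 and 5.82 on control arrays, 0.74, adjusted p = 0.0018). The endoplasmic reticulum machinery that serves secretion moved otherwise: 12 of 26 measured members rose (7 without Jmjd2a replicate 2) and 0 fell, at a median of 0.17. Its risen members included the cargo receptor Lman1 (0.52, adjusted p = 0.0003), the lectin chaperone Canx (0.30, adjusted p = 0.00032), Manf (0.36, adjusted p = 0.00036), the coat protein Sec23b (0.50, adjusted p = 0.00044) and Hspa5, the chaperone BiP (0.26, adjusted p = 0.00073). Of the 5 immunoglobulin genes with a probe set of their own, 2 fell by their brightest probe set (1 without Jmjd2a replicate 1). Iglv1 (-0.40, adjusted p = 0.0053) lost its call without Jmjd2a replicate 1 (-0.34, adjusted p = 0.064). Ighm, the mu heavy chain, fell on its brightest probe set (-0.38, adjusted p = 6.5e-05) but rose on another by 2.36, so its count here gives no direction for the gene.

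Of the genes of the mature B cell, 3 of 22 measured members rose (5 without control replicate 1) and 8 fell, at a median of -0.21. The share that rose is near that of all genes (16.0%), and the share that fell is above theirs (9.04%). Cd79b, a signalling chain of the B cell receptor, read 11.43 and 11.44 on Jmjd2a-labelled against 12.07 and 12.05 on control arrays (-0.62, adjusted p = 0.0007). The inhibitory receptor Cd72 read 10.90 and 10.86 on Jmjd2a-labelled against 11.51 and 11.67 on control arrays (-0.71, adjusted p = 0.00014). Both fell, as did the adaptor Blnk (-0.31, adjusted p = 0.00092) and the homing receptor Ccr7 (-0.88, adjusted p = 0.0032), while the kinase Blk (0.53, adjusted p = 0.007) and Fcrl1 (0.41, adjusted p = 0.0024) rose. In MHC class II presentation 1 of 10 measured members rose and 1 fell (3 without control replicate 2, 2 without control replicate 1): H2-Aa rose by 0.14 (adjusted p = 0.0036) and the peptide exchange subunit H2-DMa differed by -0.65, adjusted p = 0.004. Among germinal centre and class switch genes, 8 of 12 measured members rose (5 without control replicate 2 or Jmjd2a replicate 1, 4 without Jmjd2a replicate 2) and 2 fell, at a median of 0.46. Ung, the uracil glycosylase that acts after the deaminase in class switching, read 9.58 and 9.71 on Jmjd2a-labelled against 8.33 and 8.38 on control arrays (1.29, adjusted p = 2.1e-06). The mismatch repair gene Msh6 read 9.86 and 9.98 on Jmjd2a-labelled against 9.19 and 8.79 on control arrays (0.93, adjusted p = 7.5e-05). The transcription factor Mef2b read 7.16 and 7.23 on Jmjd2a-labelled against 6.51 and 6.29 on control arrays (0.79, adjusted p = 0.00084). The death receptor Fas fell with 8.03 and 7.94 on Jmjd2a-labelled against 9.36 and 8.64 on control arrays (-1.02, adjusted p = 0.0021). So did the costimulatory ligand Cd86, with 10.62 and 10.54 on Jmjd2a-labelled against 11.48 and 11.40 on control arrays (-0.86, adjusted p = 8.0e-05).

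**Figure D2:**
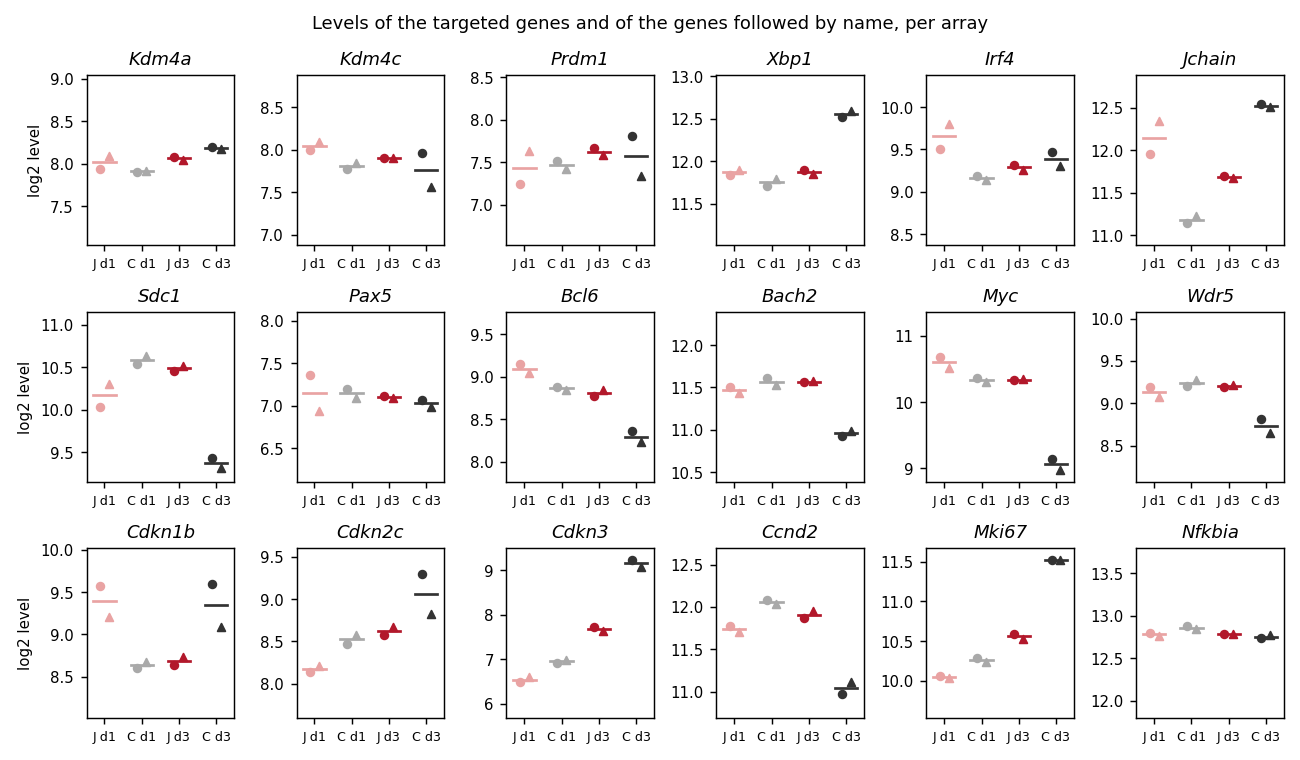
Log2 level on each array of Kdm4a, Kdm4c and the 16 genes followed by name (J, Jmjd2a-labelled, and C, control, at day 1 and day 3, circles and triangles replicates 1 and 2, bars the means of 2 arrays, each panel with its own axis of at least 2 log2 units). At day 3 Sdc1, Bach2, Myc and Ccnd2 lie above the controls and Xbp1, Jchain, Cdkn3 and Mki67 below them, while Kdm4a differs from them by -0.12 on average.

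All 28 measured genes of mitosis (G2/M) fell, at a median of -0.97 and -1.05 against control replicate 1 alone, and at least 27 passed with any 1 of the 4 arrays left out. The mean of the list was 9.11 and 9.03 on the Jmjd2a-labelled arrays of day 3, against 10.08 and 10.02 on the control arrays. On the day 1 control arrays it was lower still, at 8.74 and 8.75. Ccnb2, a mitotic cyclin, read 9.44 and 9.31 on the Jmjd2a-labelled arrays, against 10.82 and 11.01 on the control arrays (log2 difference -1.54, 95% interval -1.73 to -1.35, adjusted p = 1.3e-06). The centromere histone Cenpa read 9.92 and 9.79 on Jmjd2a-labelled against 11.18 and 11.21 on control arrays (-1.34, adjusted p = 1.8e-06). The ubiquitin-conjugating enzyme Ube2c read 10.88 ± 0.16 (Jmjd2a) against 12.27 ± 0.02 (control, mean ± SD, n = 2 each) (-1.38, adjusted p = 1.8e-06). Cdc20, which activates the anaphase-promoting complex, read 10.32 and 10.27 on Jmjd2a-labelled against 11.55 and 11.80 on control arrays (-1.38, adjusted p = 2.6e-06). Mki67, which encodes the proliferation antigen Ki-67, read 10.59 and 10.53 on Jmjd2a-labelled against 11.52 and 11.53 on control arrays (log2 difference -0.96, 95% interval -1.09 to -0.83, adjusted p = 1.8e-06). The phosphatase gene Cdkn3 read 7.72 and 7.64 on Jmjd2a-labelled against 9.24 and 9.07 on control arrays (log2 difference -1.47, 95% interval -1.71 to -1.24, adjusted p = 4.9e-06). No Jmjd2a-labelled array reached the level of a control array in any of these genes, and the groups were apart at 56.4% of all probe sets. Genes of DNA replication (G1/S) did otherwise: 17 of 29 measured members rose and 3 fell (1 without Jmjd2a replicate 1 or Jmjd2a replicate 2), at a median of 0.33. The licensing factor Cdt1 read 10.92 and 10.97 on Jmjd2a-labelled against 10.03 and 10.05 on control arrays (0.91, adjusted p = 9.1e-07). The helicase subunit Mcm2 read 10.59 and 10.70 on Jmjd2a-labelled against 9.81 and 9.41 on control arrays (1.04, adjusted p = 3.0e-05), and its partner Mcm4 11.64 and 11.65 on Jmjd2a-labelled against 11.11 and 11.07 on control arrays (0.56, adjusted p = 5.6e-06). All of these rose, as did the histone mRNA binding gene Slbp with 11.53 and 11.48 on Jmjd2a-labelled against 11.08 and 10.97 on control arrays (0.48, adjusted p = 3.8e-05). The fallen members supply nucleotides: Rrm1 (-0.30, adjusted p = 0.0026), Rrm2 (-0.17, adjusted p = 0.023) and Tk1 (-0.29, adjusted p = 0.021). Ccnd2, the D-type cyclin induced by receptor signals, rose with 11.87 and 11.95 on Jmjd2a-labelled against 10.97 and 11.12 on control arrays (log2 difference 0.87, 95% interval 0.75 to 0.99, adjusted p = 2.1e-06).

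Promoters of the mitosis genes are shown because these genes moved together. Many mitosis genes carry the cell cycle homology region, TTTGAA, near their start, where repressor complexes bind in resting cells. Searched on both strands in the 300 bases around the RefSeq start (250 before, 50 after, build GRCm38.p6), TTTGAA was present for 17 of 23 mitosis genes with a promoter sequence (73.9%), against 15.7% of all 14452 measured genes that had one. CCAAT, searched alike, was present for 73.9% of them, against 42% of all, but also for 62.5% of the DNA replication genes and for all 12 cholesterol genes with a promoter sequence, lists in which more genes rose than fell. Of the genes that fell at least 2-fold by their brightest probe set, 25.3% held TTTGAA, against 16.4% of those that rose as much. The fallen genes include mitosis genes such as Ccnb2 and Cenpa, so their share partly repeats that of the mitosis list. A match is a run of letters and not a shown binding site. The 3 mitosis genes of smallest p whose promoter holds TTTGAA read as follows, with the matches on either strand in capitals.
Ccnb2 (chr9:70421505-70421804, minus strand): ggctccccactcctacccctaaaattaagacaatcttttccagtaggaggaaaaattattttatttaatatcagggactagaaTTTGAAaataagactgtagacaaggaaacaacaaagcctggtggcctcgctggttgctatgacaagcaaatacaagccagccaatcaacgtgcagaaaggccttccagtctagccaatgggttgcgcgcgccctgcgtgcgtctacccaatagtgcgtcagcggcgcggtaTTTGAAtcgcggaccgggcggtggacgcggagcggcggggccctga
Mki67 (chr7:135716330-135716629, minus strand): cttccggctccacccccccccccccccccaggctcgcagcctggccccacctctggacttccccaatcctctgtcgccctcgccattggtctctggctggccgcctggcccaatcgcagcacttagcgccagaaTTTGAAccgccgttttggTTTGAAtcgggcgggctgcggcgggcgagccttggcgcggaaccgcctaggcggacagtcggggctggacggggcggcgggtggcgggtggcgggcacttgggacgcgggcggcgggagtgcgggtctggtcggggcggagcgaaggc
Cenpa (chr5:30666636-30666935, plus strand): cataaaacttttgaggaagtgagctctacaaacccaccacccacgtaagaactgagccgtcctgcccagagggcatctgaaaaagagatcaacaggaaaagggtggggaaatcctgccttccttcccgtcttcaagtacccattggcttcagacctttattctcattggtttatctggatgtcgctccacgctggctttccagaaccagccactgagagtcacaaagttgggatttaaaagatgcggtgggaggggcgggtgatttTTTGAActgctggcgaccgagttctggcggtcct

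Inhibitors of cyclin-dependent kinases and genes of resting lymphocytes were mixed: 3 of 19 measured members rose (1 without control replicate 2, Jmjd2a replicate 1 or Jmjd2a replicate 2) and 7 fell (4 without Jmjd2a replicate 1 or Jmjd2a replicate 2), at a median of -0.23. Cdkn2a, which encodes p16 and p19Arf, read 4.88 and 4.55 on the Jmjd2a-labelled arrays, against 6.43 and 7.54 on the control arrays (log2 difference -2.27, 95% interval -2.86 to -1.68, adjusted p = 0.00013). Cdkn1b, which encodes p27, read 8.64 and 8.73 on Jmjd2a-labelled against 9.60 and 9.09 on control arrays (log2 difference -0.66, 95% interval -0.99 to -0.34, adjusted p = 0.0076). Cdkn1b kept its call at a smaller size without control replicate 1 (-0.41) and lost it without Jmjd2a replicate 1 (-0.62). Cdkn2c, which encodes p18, read 8.58 and 8.67 on Jmjd2a-labelled against 9.29 and 8.83 on control arrays (-0.44, adjusted p = 0.039). It passed only with all 4 arrays (-0.39, -0.49 and -0.21, adjusted p = 0.18, 0.12 and 0.14, without Jmjd2a replicate 1, Jmjd2a replicate 2 and control replicate 1) or without control replicate 2 (-0.67, adjusted p = 0.00096). The antiproliferative gene Btg1 (-0.44, adjusted p = 4.8e-05) and the thioredoxin inhibitor Txnip (-0.81, adjusted p = 0.0024) fell. Klf2, a factor of resting lymphocytes, rose 2.83-fold with 7.41 and 7.14 on Jmjd2a-labelled against 6.13 and 5.43 on control arrays (adjusted p = 0.0019).

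Growth genes were higher than on the day 3 control arrays almost without exception. The mean of the list was 11.14 and 11.16 on the Jmjd2a-labelled arrays of day 3, against 10.50 and 10.51 on the control arrays. On the day 1 control arrays it was 11.23 and 11.26. Against those the median difference of the list was -0.08 and 0 members passed. Of 27 Myc targets and ribosome biogenesis genes, 26 rose and 1, the RNA polymerase I subunit gene Polr1c (-0.38, adjusted p = 0.00035), fell, at a median of 0.65 and 0.67 against control replicate 1 alone. At least 25 rose with any 1 array left out. Myc itself, the transcription factor for which the list is named, read 10.33 and 10.34 on the Jmjd2a-labelled arrays, against 9.15 and 8.97 on the control arrays (log2 difference 1.28, 95% interval 1.07 to 1.49, adjusted p = 5.5e-06). Both Jmjd2a-labelled arrays lay more than 1 log2 unit above the higher control array. The spermidine synthase Srm read 11.53 and 11.63 on Jmjd2a-labelled against 10.43 and 10.56 on control arrays (1.08, adjusted p = 7.9e-07). Odc1, the first enzyme of polyamine synthesis, read 11.96 and 12.04 on Jmjd2a-labelled against 11.25 and 11.25 on control arrays (0.75, adjusted p = 1.8e-06). In the nucleolus, the protein Gnl3 read 11.42 and 11.43 on Jmjd2a-labelled against 10.57 and 10.67 on control arrays (0.80, adjusted p = 2.1e-06) and the box C/D particle core protein Nop56 11.81 and 11.74 on Jmjd2a-labelled against 11.03 and 10.87 on control arrays (0.82, adjusted p = 4.1e-06). Wdr5, a subunit of histone H3 lysine 4 methyltransferase complexes, rose with 9.19 and 9.22 on Jmjd2a-labelled against 8.81 and 8.65 on control arrays (log2 difference 0.48, 95% interval 0.30 to 0.65, adjusted p = 0.0014). The E-box CACGTG, which Myc and Max bind along with other factors of their class, was present in the same promoter window for 5 of 21 of these genes (23.8%), against 10.2% of all 14452 measured genes with a promoter sequence. It was present at similar shares in other lists, for 4 of 16 genes of the plasma cell programme and 3 of 12 of cholesterol synthesis. The 3 of smallest p that hold it follow, with the E-box in capitals.
Nme1 (chr11:93967976-93968275, minus strand): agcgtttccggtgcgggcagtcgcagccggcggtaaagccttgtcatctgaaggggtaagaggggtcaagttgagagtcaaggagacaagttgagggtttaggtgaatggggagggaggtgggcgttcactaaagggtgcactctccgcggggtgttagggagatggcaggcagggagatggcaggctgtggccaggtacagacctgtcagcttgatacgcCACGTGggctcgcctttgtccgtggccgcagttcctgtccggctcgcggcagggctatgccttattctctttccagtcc
Nop2 (chr6:125131633-125131932, plus strand): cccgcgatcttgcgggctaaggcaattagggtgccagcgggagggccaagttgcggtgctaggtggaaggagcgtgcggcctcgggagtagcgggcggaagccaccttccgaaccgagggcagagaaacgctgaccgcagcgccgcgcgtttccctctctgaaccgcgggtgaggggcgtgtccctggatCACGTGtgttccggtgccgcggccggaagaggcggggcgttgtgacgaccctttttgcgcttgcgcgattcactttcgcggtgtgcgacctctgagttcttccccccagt
Ldha (chr7:46845554-46845853, plus strand): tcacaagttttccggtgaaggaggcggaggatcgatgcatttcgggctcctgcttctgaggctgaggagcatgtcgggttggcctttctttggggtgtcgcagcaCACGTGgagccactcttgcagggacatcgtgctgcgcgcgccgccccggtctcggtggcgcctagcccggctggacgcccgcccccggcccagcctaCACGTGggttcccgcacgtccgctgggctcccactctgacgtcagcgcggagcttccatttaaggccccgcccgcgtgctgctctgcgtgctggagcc

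**Figure D3:**
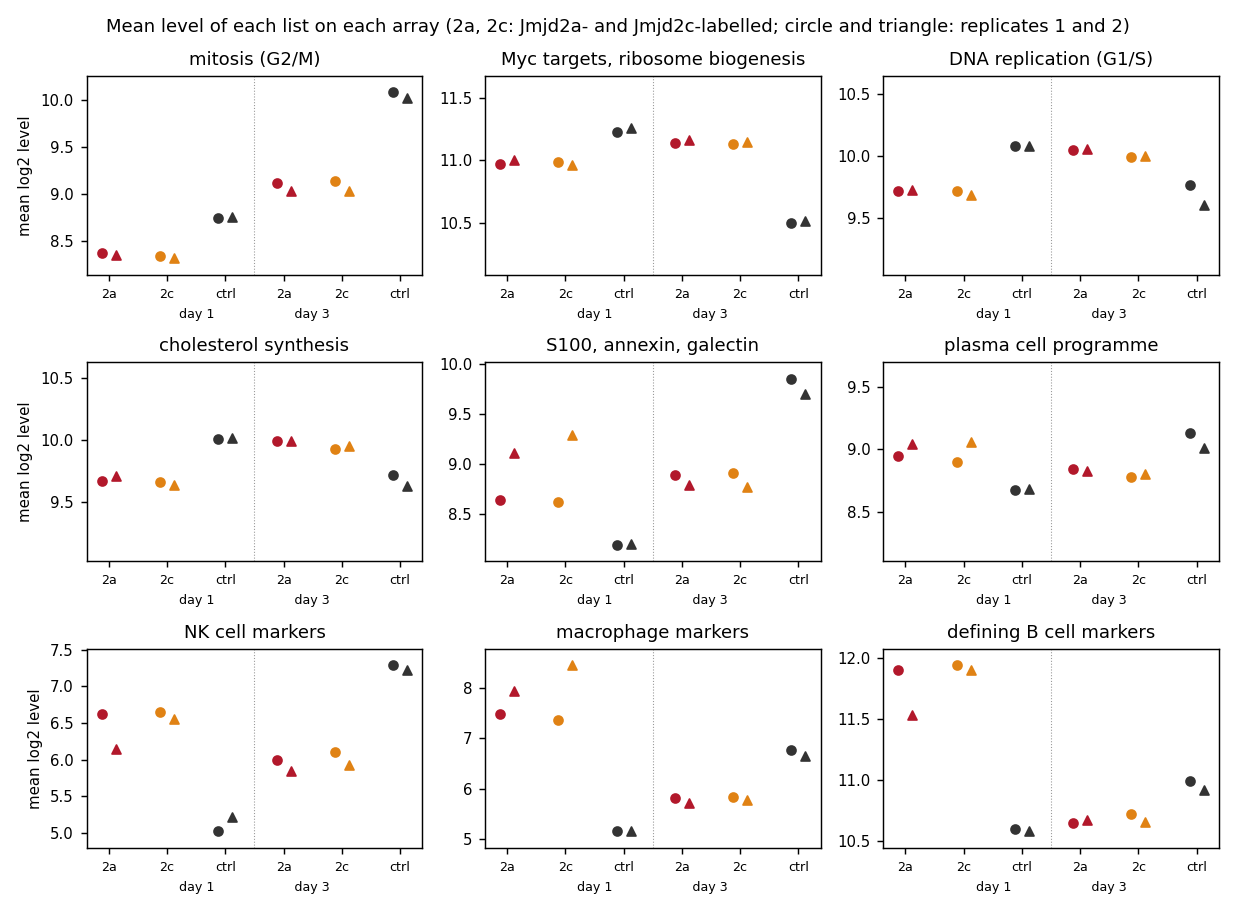
Mean log2 level over the members of 9 lists on each of the 12 arrays, with day 1 at the left and day 3 at the right of each panel (2a and 2c, Jmjd2a- and Jmjd2c-labelled, circles and triangles replicates 1 and 2). At day 3 mitosis, S100, NK and macrophage genes lie lower on the Jmjd2a-labelled arrays than on the controls and Myc targets higher, and the Jmjd2c-labelled arrays lie beside the Jmjd2a-labelled ones.

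In glycolysis and glucose transport 8 of 14 measured members rose (5 without Jmjd2a replicate 1 or Jmjd2a replicate 2) and 0 fell (1 without control replicate 1), at a median of 0.28. Slc16a1, the lactate carrier, read 10.81 and 10.91 on Jmjd2a-labelled against 9.48 and 9.48 on control arrays (log2 difference 1.38, 95% interval 1.25 to 1.51, adjusted p = 3.2e-07). The hexokinase Hk2 read 9.31 and 9.29 on Jmjd2a-labelled against 8.43 and 8.31 on control arrays (0.93, adjusted p = 7.5e-06). The phosphofructokinase Pfkp read 11.40 and 11.40 on Jmjd2a-labelled against 10.69 and 10.86 on control arrays (0.63, adjusted p = 2.8e-05). All rose, as did the lactate dehydrogenase subunit Ldha with 12.87 and 12.90 on Jmjd2a-labelled against 12.43 and 12.53 on control arrays (0.41, adjusted p = 4.8e-05). In cholesterol synthesis and uptake 10 of 15 measured members rose and 0 fell (1 without control replicate 2), at a median of 0.42. The sterol demethylase Cyp51 read 10.35 and 10.45 on Jmjd2a-labelled against 9.73 and 9.68 on control arrays (0.69, adjusted p = 2.6e-05). Next by p stood Idi1 (0.47, adjusted p = 4.1e-05), Sc5d (0.75, adjusted p = 7.1e-05) and the sterol sensor Insig1 (0.44, adjusted p = 0.00049). The transcription factor Atf4, which raises amino acid supply, read 11.46 and 11.43 on Jmjd2a-labelled against 10.86 and 10.85 on control arrays (0.59, adjusted p = 9.2e-06). In its list 9 of 21 measured members rose and 2 fell (1 without control replicate 2, 4 without control replicate 1, 0 without Jmjd2a replicate 1 or Jmjd2a replicate 2). The serine pathway enzyme Shmt2 (0.88, adjusted p = 1.1e-05), the glutamine carrier Slc1a5 (1.04, adjusted p = 0.00021) and Psph (0.55, adjusted p = 0.00024) rose. Oxidative phosphorylation subunits differed little: 4 of 24 measured members rose (1 without control replicate 2, 0 without Jmjd2a replicate 1, 2 without Jmjd2a replicate 2) and 1 fell (0 without control replicate 1, Jmjd2a replicate 1 or Jmjd2a replicate 2), at a median of 0.04. Ndufs1 rose by 0.32 (adjusted p = 0.0099) and lost its call without Jmjd2a replicate 1 (0.28, adjusted p = 0.096).

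Heat-shock proteins and chaperonins rose in 15 of 18 cases and fell in none, at a median of 0.32. Hspa1b, the inducible Hsp70, read 9.69 and 8.32 on the Jmjd2a-labelled arrays, against 5.68 and 5.59 on the control arrays (log2 difference 3.37, 95% interval 2.27 to 4.48, adjusted p = 0.00059). Its near-identical neighbour Hspa1a differed by 1.81, adjusted p = 0.0097, and probe sets may not tell these apart. The mitochondrial chaperonin Hspd1 read 13.01 and 13.05 on Jmjd2a-labelled against 12.41 and 12.42 on control arrays (0.62, adjusted p = 2.2e-06) and its partner Hspe1 0.30, adjusted p = 0.00024. The cytosolic chaperonin subunits Cct8 (0.35, adjusted p = 0.00017) and Cct2 (0.26, adjusted p = 0.00022) rose by less.

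Among immediate early genes, which receptor signals raise within the hour, 8 of 22 measured members rose and 1 fell (2 without control replicate 2, 0 without control replicate 1, Jmjd2a replicate 1 or Jmjd2a replicate 2), at a median of 0.26. Nr4a1, the orphan receptor Nur77 that follows antigen receptor signals, read 8.50 and 8.42 on the Jmjd2a-labelled arrays, against 6.59 and 6.04 on the control arrays (log2 difference 2.15, 95% interval 1.51 to 2.78, adjusted p = 0.0003). The AP-1 subunit Fos read 7.55 and 7.13 on Jmjd2a-labelled against 5.80 and 5.82 on control arrays (1.53, adjusted p = 4.0e-05), and Nr4a3, a relative of Nr4a1, 7.87 and 7.93 on Jmjd2a-labelled against 6.56 and 6.28 on control arrays (1.48, adjusted p = 1.2e-05). In each of these the groups were apart, as at 56.4% of all probe sets. The transcription factor Egr2 read 11.78 and 11.80 on Jmjd2a-labelled against 10.90 and 10.64 on control arrays (1.02, adjusted p = 8.1e-06), and Ier2 10.00 and 10.05 on Jmjd2a-labelled against 8.91 and 8.88 on control arrays (1.13, adjusted p = 2.0e-05). The partners Jun and Fosb, at -0.44 and -0.42, did not pass (adjusted p = 0.092 and 0.2). In the CD40 and NF-kB pathway, 5 of 18 measured members rose (9 without control replicate 1) and 3 fell. The subunit Rel rose with 10.08 ± 0.02 (Jmjd2a) against 8.85 ± 0.22 (control, mean ± SD, n = 2 each) (1.24, adjusted p = 4.5e-06) and the inhibitor Nfkbib with 0.76, adjusted p = 9.9e-05. The chemokine Ccl22 fell with 6.98 and 6.83 on Jmjd2a-labelled against 9.03 and 8.54 on control arrays (-1.88, adjusted p = 6.7e-05). The cytokine subunit Ebi3 fell with 6.90 and 6.92 on Jmjd2a-labelled against 8.28 and 8.41 on control arrays (-1.43, adjusted p = 4.4e-05). In the signalling list of IL-21, 9 of 16 measured members rose (5 without Jmjd2a replicate 1 or Jmjd2a replicate 2) and 1 fell (3 without control replicate 2), at a median of 0.21. Il6st, the receptor chain shared by the IL-6 family and not part of the IL-21 receptor, read 7.29 and 7.22 on Jmjd2a-labelled against 5.97 and 5.20 on control arrays (1.67, adjusted p = 7.5e-05). Stat3, the main transcription factor downstream of IL-21, read 11.17 and 11.17 on Jmjd2a-labelled against 10.58 and 10.09 on control arrays (0.84, adjusted p = 0.0011). The kinase Jak1 rose as well (0.71, adjusted p = 0.0017, and 0.45 without control replicate 2, adjusted p = 0.0013). The feedback inhibitor Socs2 fell (8.11 and 7.96 on Jmjd2a-labelled against 9.18 and 9.25 on control arrays, -1.17, adjusted p = 5.5e-05).

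Interferon-induced genes fell in part: 3 of 20 measured members rose and 8 fell (5 without Jmjd2a replicate 2), at a median of -0.25. The guanylate-binding protein gene Gbp2 fell with 10.90 ± 0.14 (Jmjd2a) against 12.53 ± 0.17 (control, mean ± SD, n = 2 each) (-1.63, adjusted p = 3.5e-06). Its relative Gbp3 fell with 9.52 and 9.36 on Jmjd2a-labelled against 10.91 and 10.75 on control arrays (-1.38, adjusted p = 1.0e-05), and the GTPase Igtp with a difference of -0.61, adjusted p = 4.1e-05. Usp18, which removes the ubiquitin-like modifier ISG15, rose with 8.34 and 8.37 on Jmjd2a-labelled against 7.49 and 6.95 on control arrays (1.14, adjusted p = 0.00017). In the Bcl2 family, 0 of 14 measured members rose (3 without control replicate 1) and 2 fell (1 without control replicate 1, Jmjd2a replicate 1 or Jmjd2a replicate 2). The death-promoting BH3-only gene Bcl2l11, which encodes Bim, read 10.50 and 10.43 on the Jmjd2a-labelled arrays, against 12.21 and 11.82 on the control arrays (log2 difference -1.55, 95% interval -1.78 to -1.32, adjusted p = 3.1e-06). Pmaip1, which encodes Noxa, differed by -0.52, adjusted p = 0.027 and lost its call without control replicate 1 or either Jmjd2a array (-0.35, -0.54 and -0.49, adjusted p = 0.093, 0.099 and 0.15). The survival genes Bcl2 and Mcl1 read 0.19 and -0.06 and did not pass (adjusted p = 0.19 and 0.44).

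Of the S100, annexin and galectin genes, 2 of 18 measured members rose (0 without control replicate 2, Jmjd2a replicate 1 or Jmjd2a replicate 2) and 12 fell, at a median of -1.07. The calcium-binding S100a4 read 7.92 and 7.52 on the Jmjd2a-labelled arrays, against 9.90 and 9.82 on the control arrays (log2 difference -2.14, 95% interval -2.58 to -1.71, adjusted p = 2.1e-05). The membrane-binding Anxa2 read 8.51 and 8.44 on Jmjd2a-labelled against 9.79 and 9.94 on control arrays (-1.39, adjusted p = 2.3e-06) and its relative Anxa4 9.06 and 8.96 on Jmjd2a-labelled against 10.08 and 9.88 on control arrays (-0.97, adjusted p = 1.9e-05). The galectin Lgals1 read 11.28 and 11.10 on Jmjd2a-labelled against 12.28 and 12.34 on control arrays (-1.12, adjusted p = 8.2e-06). Of the lysosome and lipid handling genes, 1 of 21 measured members rose (3 without control replicate 1) and 13 fell, at a median of -0.53. The progranulin gene Grn read 11.34 and 11.23 on Jmjd2a-labelled against 12.31 and 12.34 on control arrays (-1.05, adjusted p = 4.8e-06), and the lipid droplet protein Plin2 8.52 and 8.35 on Jmjd2a-labelled against 9.83 and 9.79 on control arrays (-1.38, adjusted p = 5.9e-06). The sterol carrier Npc2 fell (-0.58, adjusted p = 6.2e-06), and the fatty acid carrier Fabp5 fell with 10.93 and 10.92 on Jmjd2a-labelled against 12.12 and 12.36 on control arrays (-1.32, adjusted p = 8.1e-06). Jmjd2a-labelled and control arrays did not overlap in these genes, which were picked for their small p, as they did not at 56.4% of all probe sets.

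Markers of other spleen cells were lower too. NK cell markers averaged 6.00 and 5.85 on the Jmjd2a-labelled arrays, against 7.29 and 7.23 on the control arrays, and 7 of 9 fell. They were led by the granzymes Gzma and Gzmb. The granule protein Nkg7 read 6.87 and 6.65 on Jmjd2a-labelled against 8.24 and 8.07 on control arrays (-1.40, adjusted p = 5.3e-05) and the pore former Prf1 6.58 and 6.76 on Jmjd2a-labelled against 7.90 and 8.38 on control arrays (-1.47, adjusted p = 0.00019). The NK receptor Ncr1 read 3.79 and 3.99 on Jmjd2a-labelled against 4.18 and 4.53 on control arrays and the NK transcription factor Eomes 4.91 and 4.78 on Jmjd2a-labelled against 5.03 and 5.26 on control arrays, near or below the array-wide median on each of the 4 arrays. Macrophage and monocyte markers averaged 5.83 and 5.72 on the Jmjd2a-labelled arrays, against 6.77 and 6.65 on the control arrays, and 12 of 19 fell (3 without Jmjd2a replicate 2). Among them were the adhesion molecule Vcam1 (-1.79, adjusted p = 0.00032), the lysosomal marker Cd68 (-1.19, adjusted p = 0.0019) and the iron exporter Slc40a1 (-1.43, adjusted p = 0.0038). The scavenger receptor Marco fell too (-0.89, adjusted p = 0.0048) and lost its call without Jmjd2a replicate 2 (-0.78, adjusted p = 0.064). The growth factor receptor Csf1r of macrophages read 6.29 and 6.04 on Jmjd2a-labelled against 7.36 and 7.55 on control arrays. The part of these cells in the falls was not tested.

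Other marker lists moved less. T cell markers averaged 5.70 and 5.60 on the Jmjd2a-labelled arrays, against 6.07 and 5.97 on the control arrays, and 6 of 14 fell (3 without Jmjd2a replicate 1, 1 without Jmjd2a replicate 2), while the receptor chains Cd3d, Cd3e and Cd3g differed by -0.33, -0.30 and -0.30 and did not pass. Of the 10 dendritic cell markers 3 rose and 3 fell (1 without Jmjd2a replicate 1), with the cytokine receptor Flt3 at 7.25 and 7.07 on Jmjd2a-labelled against 8.86 and 8.47 on control arrays (-1.50, adjusted p = 0.0002). Of 11 neutrophil markers 2 fell (1 without control replicate 2 or control replicate 1, 0 without Jmjd2a replicate 1 or Jmjd2a replicate 2), and S100a8 read 5.96 and 5.93 on Jmjd2a-labelled against 7.60 and 7.32 on control arrays without passing (-1.51, adjusted p = 0.43). Car2 (-1.49, adjusted p = 7.9e-05) alone of 11 erythroid and platelet markers passed, and none of 10 stromal and endothelial markers did (4 without control replicate 1). Of the 4 defining B cell markers Cd79b alone fell, and their mean was 10.65 and 10.67 on the Jmjd2a-labelled arrays, against 10.99 and 10.92 on the control arrays.

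The largest single rises were read from the probe set that differed most for each gene. Pcp4, a calmodulin-binding peptide gene, read 8.67 and 8.58 on the Jmjd2a-labelled arrays, against 4.03 and 4.78 on the control arrays (log2 difference 4.22, 95% interval 3.83 to 4.60, adjusted p = 3.2e-07), which is 18.6-fold. Its control arrays lay below the array-wide median and its Jmjd2a-labelled arrays far above it. Rgs13, a brake on chemokine receptor signals in germinal centre B cells, read 8.29 and 8.45 on Jmjd2a-labelled against 5.45 and 4.93 on control arrays (3.18, adjusted p = 1.2e-06). The immunoglobulin transporter Pigr read 6.57 and 6.75 on Jmjd2a-labelled against 4.10 and 3.42 on control arrays (2.90, adjusted p = 3.0e-06). The transcription factor Maf read 8.55 and 8.55 on Jmjd2a-labelled against 5.96 and 5.34 on control arrays (2.90, adjusted p = 7.9e-07) and the protease inhibitor Serpinb1a 8.94 and 8.89 on Jmjd2a-labelled against 6.28 and 5.92 on control arrays (2.81, adjusted p = 3.7e-07). Xrcc5, the Ku80 subunit of DNA end joining, read 8.15 and 8.24 on Jmjd2a-labelled against 5.96 and 5.35 on control arrays (2.54, adjusted p = 1.8e-06). Smad1, which carries signals of bone morphogenetic proteins, read 6.27 and 6.75 on Jmjd2a-labelled against 3.88 and 4.11 on control arrays (2.51, adjusted p = 2.4e-06). Fcmr, the Fc receptor for IgM, read 9.07 and 9.16 on Jmjd2a-labelled against 7.15 and 6.43 on control arrays (2.32, adjusted p = 5.3e-06). Groups that lie apart were a condition of this choice, and 56.4% of all probe sets meet it. Hspa1b, given above, belongs to the same set. The day 1 control arrays read near the Jmjd2a-labelled levels of day 3 for Pcp4 (8.76 and 8.86), Rgs13 (8.47 and 8.55) and Maf (8.76 and 8.77). For Hspa1b, unlike these, they read 5.84 and 6.32. Probe sets of 1 gene did not always go together. Pigr, Serpinb1a, Smad1 and Hspa1b rose on all of theirs, and Maf on 5 of 6. Kdm6b rose on 2 of 3, by 2.65 on this probe set (8.19 and 8.34 on Jmjd2a-labelled against 5.96 and 5.26 on control arrays) and 1.04 on the brightest. Spred2, an inhibitor of Ras signals, read 7.22 and 7.41 on Jmjd2a-labelled against 5.29 and 4.67 on control arrays (2.34, adjusted p = 3.9e-06) on 1 probe set, and its other 4 did not pass. Ighm read 12.54 and 12.57 on Jmjd2a-labelled against 10.14 and 10.25 on control arrays (2.36, adjusted p = 1.7e-06) on 1 of 11 probe sets, whereas 4 others fell, the brightest with a difference of -0.38, so no direction can be given for the gene.

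**Figure D4:**
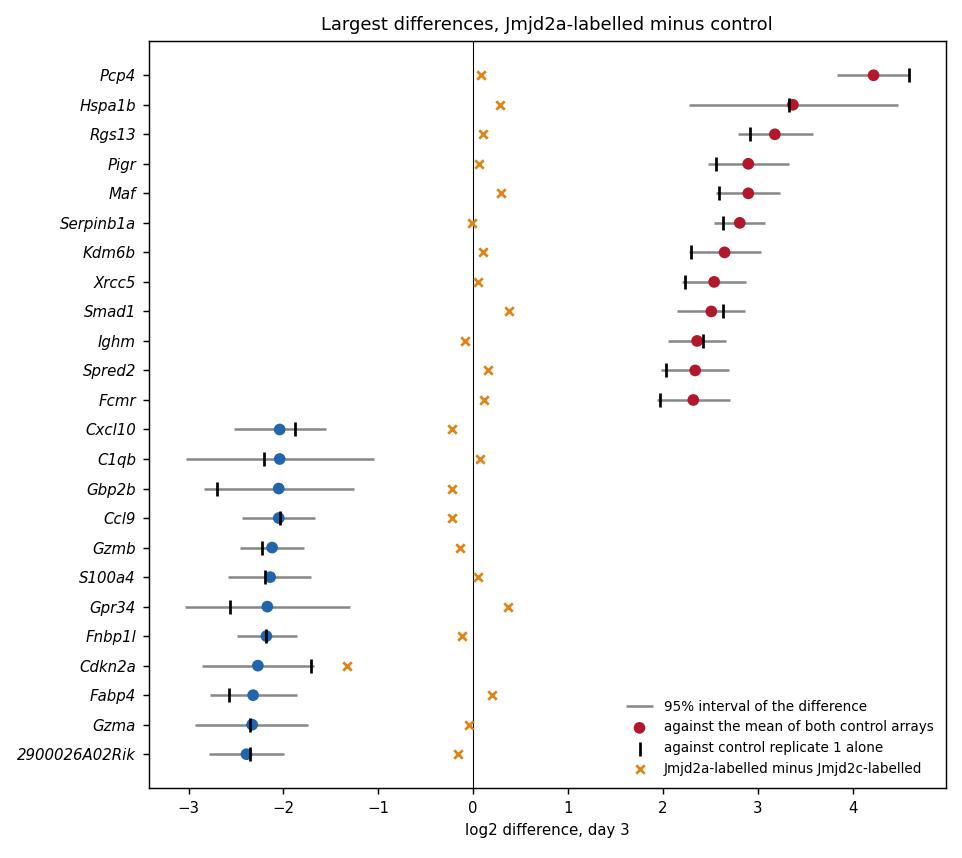
The 12 largest rises and 12 largest falls at day 3 (circles, log2 difference Jmjd2a-labelled minus control, grey lines its 95% interval, ticks the difference against control replicate 1 alone, crosses Jmjd2a- minus Jmjd2c-labelled). Pcp4 stands highest at 4.22, and all crosses but that of Cdkn2a (-1.33) lie within 0.4 of 0.

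The 12 largest falls were read in the same way. Gzma, a granzyme of cytotoxic cells, read 8.65 and 8.42 on the Jmjd2a-labelled arrays, against 10.88 and 10.85 on the control arrays (log2 difference -2.33, 95% interval -2.93 to -1.74, adjusted p = 0.00011), and Gzmb 8.06 and 7.82 on Jmjd2a-labelled against 10.17 and 9.95 on control arrays (-2.12, adjusted p = 4.8e-06). The lipid carrier Fabp4 read 3.38 and 3.16 on Jmjd2a-labelled against 5.84 and 5.34 on control arrays (-2.32, adjusted p = 1.7e-05) and fell on 3 of its 4 probe sets. Both of its Jmjd2a-labelled values lie below the array-wide median. The chemokine gene Ccl9 read 5.96 ± 0.18 (Jmjd2a) against 8.01 ± 0.02 (control, mean ± SD, n = 2 each) (-2.05, adjusted p = 1.2e-05) and fell on both of its probe sets. Cxcl10, an interferon-induced chemokine gene, read 7.59 and 7.41 on Jmjd2a-labelled against 9.38 and 9.69 on control arrays (-2.04, adjusted p = 6.7e-05). The lysophospholipid receptor Gpr34 read 5.37 and 5.33 on Jmjd2a-labelled against 7.92 and 7.13 on control arrays (-2.17, adjusted p = 0.0023). The membrane-bending protein Fnbp1l read 7.07 and 7.02 on Jmjd2a-labelled against 9.22 and 9.22 on control arrays (-2.18, adjusted p = 2.4e-06) and the interferon-induced GTPase Gbp2b 5.28 and 5.22 on Jmjd2a-labelled against 7.95 and 6.65 on control arrays (-2.05, adjusted p = 0.0017). The unnamed transcript 2900026A02Rik read 7.29 and 7.27 on Jmjd2a-labelled against 9.63 and 9.70 on control arrays (-2.39, adjusted p = 5.6e-06) on 1 of 2 probe sets. C1qb, a chain of the complement component C1q made by macrophages, read 5.55 and 5.08 on Jmjd2a-labelled against 7.52 and 7.18 on control arrays (-2.04, adjusted p = 0.0074) on a probe set that lost its call without Jmjd2a replicate 2 (-1.81, adjusted p = 0.082), and its brightest probe set did not pass (-1.25, adjusted p = 0.11). S100a4 and Cdkn2a complete the 12.

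Set against the Jmjd2c-labelled arrays of the same day, the Jmjd2a label showed no called difference. The control arrays enter this test only through the shared estimate of the spread. By limma, 0 of 45037 probe sets (0.0%) passed, the smallest adjusted p was 0.76, and 2571 had an unadjusted p under 0.05. With array weights 26 passed, and 66 passed with either day 3 control array left out. Sdc1 read 10.46 and 10.52 on the Jmjd2a-labelled and 10.44 and 10.46 on the Jmjd2c-labelled arrays, a difference of 0.04 (95% interval -0.15 to 0.23). Myc read 10.33 and 10.34 on the Jmjd2a-labelled and 10.12 and 10.15 on the Jmjd2c-labelled arrays, a difference of 0.20 (95% interval -0.01 to 0.41). Mki67 differed by 0.01 (95% interval -0.12 to 0.13), Xbp1 by -0.03 (95% interval -0.15 to 0.09) and Kdm4a itself by 0.10 (95% interval -0.09 to 0.29). Among the 12 largest rises and 12 largest falls, Cdkn2a differed most, at -1.33 (95% interval -1.92 to -0.73), with 4.88 and 4.55 on the Jmjd2a-labelled and 5.97 and 6.12 on the Jmjd2c-labelled arrays. Smad1 differed by 0.38 (95% interval 0.02 to 0.74). Both intervals leave out 0, but neither gene passed over all probe sets (adjusted p = 0.85 for each). Differences as large as the bounds of these intervals could have gone uncalled. With all 12 arrays fitted, no gene named here was called different between the Jmjd2a and Jmjd2c labels, and both labels were compared with the same control arrays.

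The Jmjd2a difference was not the same at day 1 and day 3. The change between days passed at 8264 probe sets (18.3%), 14662 without control replicate 1 and 5277 without Jmjd2a replicate 2 of day 3. Sdc1 differed from control by -0.41 at day 1 and 1.11 at day 3 (adjusted p of the change between days = 1.1e-05). Jchain differed by 0.97 at day 1 and -0.84 at day 3 (adjusted p of the change between days = 0.00013) and Ccnd2 by -0.32 at day 1 and 0.87 at day 3 (adjusted p of the change between days = 3.4e-06). In these genes the sign turned between the days, and each passed on both. Xbp1 differed by 0.12 at day 1 and -0.68 at day 3 (adjusted p of the change between days = 3.2e-05). Myc differed by 0.27 at day 1 and 1.28 at day 3 (adjusted p of the change between days = 0.0003) and Bach2 by -0.10 at day 1 and 0.61 at day 3 (adjusted p of the change between days = 3.5e-05), with a difference that passed at day 3 only. Kdm4a differed by 0.11 at day 1 and -0.12 at day 3 (adjusted p of the change between days = 0.26). The share of all genes called at day 1 was not counted here, so the day 1 counts that follow stand without a background share. Of the mitosis genes 19 of 28 were lower at day 1 (median -0.38) and all at day 3. Of the Myc targets 21 of 27 were lower at day 1 (median -0.27) and 26 higher at day 3. Of the macrophage markers 16 of 19 were higher at day 1 (median 2.08) and 12 lower at day 3. These markers moved with the label in opposite directions on the 2 days, and their part in the other changes was not tested.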

How the data were processed

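RNA was measured on 12 Affymetrix mouse expression arrays, 6 groups of 2. The deposited series matrix holds log2 values per probe set. How the authors normalized these values is not stated in the labels or headers. Of 45101 probe sets 64 controls were left out, and 45037 were tested. Arrays give no read depth, so the number of arrays limits precision.

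All 12 arrays entered a single limma model of 6 group means (limma 3.58.1, R 4.3.3, empirical Bayes with an intensity trend, 6 residual and 5.85 prior degrees of freedom). Adjusted p is Benjamini and Hochberg's over all 45037, and intervals are 95% intervals of the moderated model. Tested on simulated data with known changes, the fit recovered 58.5%, 91.5% and 99% of 1.5-, 2- and 4-fold changes. This was for the Jmjd2a against control comparison, with 22 false calls. The simulated noise was normal with 1 spread per probe set for all groups, and changes were planted only above the median level. Unequal spread of the day 3 groups (pooled SD 0.115 for Jmjd2a-labelled, 0.259 for control) was not simulated, so recovery and false calls in the data may differ. Gene names came from the platform annotation: 34945 probe sets named 1 gene, 932 several and 9160 none. A list's gene is represented by its brightest probe set. Promoter sequences are RefSeq's (GRCm38.p6).

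The comparison and the 33 lists (25 programmes, 8 marker sets) were chosen with earlier results of these data known. Named genes are Kdm4a, Kdm4c, 16 genes of plasma cell differentiation and cell cycle, the 12 largest rises and 12 largest falls (1 gene named, adjusted p under 0.05, groups apart, at least 50% of the difference kept against control replicate 1 alone, higher mean above the median), and up to 4 members of smallest p per list. A few further members, and the comparison with day 1 controls, were chosen after their values were seen. Replicate numbers showed no pairing of the Jmjd2a-labelled with the control arrays of day 3 (correlation of deviations -0.072). The highest such correlation was 0.392, between the Jmjd2a- and Jmjd2c-labelled arrays of day 1. Across these groups, arrays of the same number correlated at 0.9979 and 0.997, against 0.9962 between the 2 Jmjd2a-labelled arrays of day 1. Those arrays were thus alike in part by replicate number, and the main model held no term for it. Alternatives were other scalings, filters, variance models, array subsets and thresholds.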

Additional observations from a re-analysis of the deposited data

Results flagged for a closer look

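For 11 of the 16 genes followed by name, the log2 difference between Jmjd2a-labelled and control arrays was not alike on the 2 days, by the test of the change itself (limma, adjusted p under 0.05). The day 3 difference minus the day 1 difference was above 0 for Sdc1 at 1.52, Bach2 at 0.71, Myc at 1.01, Wdr5 at 0.58 and Ccnd2 at 1.19. Below 0 were Xbp1 at -0.80, Irf4 at -0.59, Jchain at -1.81, Cdkn1b at -1.42, Cdkn3 at -1.07 and Mki67 at -0.75. Irf4 is among them although it did not pass at day 3 itself (-0.10), since it was higher than control at day 1 (0.49, adjusted p = 0.012). Each of these values holds both day 3 control arrays, of which replicate 2 stood apart in its controls. Groups of 2 arrays allow no test of a single array against its group.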

How the results depend on the processing

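The 9351 probe sets that passed became 5711 with array weights, 3440 with the 4 arrays alone, 5049 with 1 probe set per gene (18193 tested) and 4064 with a 1.5-fold floor, and 4240 to 17389 with 1 array left out. The 6149 higher were 2284 with the 4 arrays alone, 3126 with 1 per gene and 2838 with the floor, and 3030 to 9773 with 1 array left out. The 3202 lower were 1412 with array weights, 1156 with the 4 arrays alone, 2001 with day 3 arrays alone, 1923 with 1 per gene, 5077 at an adjusted p under 0.10 and 1226 with the floor, and 1210 to 7616 with 1 array left out. The 0 differing from Jmjd2c became 26 with array weights and 0 to 66 with 1 array left out. The 8264 that changed between days became 4684 with 1 per gene and 5277 to 14662 with 1 array left out. Of the programme lists' distinct genes, 151 rose and 106 fell, 65 and 75 with the floor, and 112 to 180 and 81 to 115 with 1 array left out. The replicate block gave 9447 probe sets (6263 higher, 3184 lower), although the numbers showed no pairing of the 2 groups compared. Of 139 named probe sets, 96 kept their call and direction under each of the 15 alternatives that tested them, 43 changed their call under at least 1, and 0 turned their sign as a call. The floor, and 1 probe set per gene, leave fewer probe sets that can pass. Array weights gave 0.278 to each day 3 control array and 1.56 to each Jmjd2a-labelled array of day 3. The 2 arrays of a group had equal weights, so these do not set control replicate 2 apart. Why the counts moved with array weights and with the subsets of arrays, control replicate 1 left out among them, was not tested. With 2 arrays a group, the incomplete recovery of 1.5-fold changes, even in simulation with equal spreads, limits what a missing call can say. Dim probe sets bound a fold only loosely.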
